A study of Mus musculus with 8 samples.

Results

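The 9 genes described here belong to bone morphogenetic protein (BMP) signalling in mouse embryonic stem cells: the ligand gene Bmp4, the receptor gene Bmpr1a, the signal transducers Smad1 and Smad5, the inhibitory Smad6, and the 4 Id genes, Id1 to Id4. They were chosen by symbol out of 22959 genes with a value, selected on their FPKM levels in these same 8 libraries. The question put to them was whether Id2 follows the other Id genes over the culture conditions. All 9 had values and all 9 were among the 10274 genes kept for testing. Because the choice was made with the levels known, the values of these 9 genes are given as a description, with no p-value.

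RNA was sequenced from Bruce 4, an established male embryonic stem cell line of wild-type C57BL/6J mice, after 2 weeks of culture. There were 4 groups of 2 libraries, 8 in all: a laminin-511 (LN511, LM511 in the titles) coating with 2i medium, a gelatin coating with 2i medium, LN511 with Std medium, and gelatin with Std medium. The labels do not give the composition of either medium. As a general term, 2i is a medium with inhibitors of MEK and GSK3 that holds embryonic stem cells in a naive state. Laminin-511 is a basement membrane protein that integrins bind, and gelatin is denatured collagen. All groups come from 1 line, and the design text calls the 2 libraries of a group biological replicates. The p-values below set a difference against the spread between libraries of the same group. This spread was pooled over the 4 groups and moderated by that of all tested genes.

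BMP ligands bind pairs of type I and type II receptor kinases, which phosphorylate Smad1, Smad5 and Smad9. These enter the nucleus with Smad4 and switch on target genes, among them the Id genes and the inhibitory Smads. Id proteins are helix-loop-helix proteins without a DNA-binding region. They pair with E proteins such as Tcf3 and keep them from DNA. In mouse embryonic stem cells, BMP acting through Id proteins is known to hold back neural differentiation in the presence of the cytokine LIF.

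The Id genes lie apart in the genome (GRCm38.p6, the assembly that mm10 names): Id1 on chromosome 2 (152736251 to 152737410), Id2 on chromosome 12 (25093799 to 25096092), Id3 on chromosome 4 (136143822 to 136145392) and Id4 on chromosome 13 (48261116 to 48266028). The 250 bases before the start of Id2, Id3 and Id4 are shown because these 3 genes had different patterns over the conditions, while that of Id1 was not analysed here. The sequences are RefSeq's for that assembly, on the strand of the gene, 5′ to 3′, at chr12:25096093-25096342 on the minus strand for Id2, chr4:136143572-136143821 on the plus strand for Id3 and chr13:48260866-48261115 on the plus strand for Id4. Capitals mark the 2 motifs searched on both strands, GGCGCC, a GC-rich sequence that Smad1 and Smad5 can bind, and CAGAC, a Smad-binding sequence that reads GTCTG on the other strand.
Id2: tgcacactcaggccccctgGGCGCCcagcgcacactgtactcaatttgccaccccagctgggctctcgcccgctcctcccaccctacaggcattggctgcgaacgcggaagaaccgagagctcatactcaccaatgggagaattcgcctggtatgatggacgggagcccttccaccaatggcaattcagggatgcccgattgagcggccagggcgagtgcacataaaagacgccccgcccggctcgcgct
Id3: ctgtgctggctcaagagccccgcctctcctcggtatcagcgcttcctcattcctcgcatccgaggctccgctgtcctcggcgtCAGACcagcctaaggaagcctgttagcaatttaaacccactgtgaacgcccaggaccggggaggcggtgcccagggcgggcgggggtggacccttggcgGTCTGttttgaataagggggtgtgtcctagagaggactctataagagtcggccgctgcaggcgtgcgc
Id4: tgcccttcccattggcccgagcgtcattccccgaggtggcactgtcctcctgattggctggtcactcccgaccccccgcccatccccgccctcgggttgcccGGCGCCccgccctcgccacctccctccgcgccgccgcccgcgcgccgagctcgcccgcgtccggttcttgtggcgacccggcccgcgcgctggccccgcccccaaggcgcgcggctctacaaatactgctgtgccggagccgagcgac
The Id2 window held GGCGCC once, with its first base at -231 from the start of the gene, and the Id4 window held it once, at -148. The Id3 window held CAGAC once on each strand, at -167 and -68, and no GGCGCC. Of 32536 different promoter windows of this length, 9.65% held GGCGCC and 42.2% held CAGAC. The G and C content was 62.8% in Id2, 62.8% in Id3 and 75.6% in Id4, against a median of 52.4% over all windows. The windows of Bmp4, Smad1 and Smad6 held neither motif, that of Bmpr1a held GGCGCC once, and the 3 windows of Smad5, one for each of its starts, held 1 match of each motif in all. A match is a description of these letters and not a bound site.

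Expression is given in FPKM (fragments relative to transcript length and sequencing depth), summed over the RefSeq transcripts of a gene. Steps between low values put the 8 libraries within 1.2-fold of each other in depth. If low values rest on single fragments, the library medians of the depth were 2300000 to 2700000 fragments. This is a rough estimate. It is too low where such values rest on more fragments, and too high where they rest on a part of 1 fragment. At that depth, 1 fragment is worth 0.427 FPKM on the Id1 transcript of 934 bases, 0.314 FPKM on Id2 and 0.104 FPKM on Id4, whose transcript has 3849 bases. Pearson correlations of log2(FPKM + 1) over genes were 0.959 to 0.964 between replicates and 0.907 to 0.955 between groups. The 8 embryonic stem cell markers, Pou5f1, Sox2 and Nanog among them, were above 1 FPKM in each group, and their summed level was 2335 to 2705 FPKM over the libraries, with Pou5f1 at 949 to 1245 FPKM. Within this sum single markers moved with the medium. Nanog rose to 582 FPKM in 2i on LN511, against 45.8 FPKM in Std, and to 451 FPKM in 2i on gelatin, against 54.9 FPKM in Std. Utf1 fell to 82.1 FPKM in 2i on LN511, against 393 FPKM in Std, and to 81.9 FPKM in 2i on gelatin, against 348 FPKM in Std (limma adjusted p of 0.00021 or less for both genes on both coatings). Sox2 and Zfp42 also rose and Tdgf1 also fell in 2i on both coatings, and Esrrb rose on gelatin, while on LN511 it missed the threshold (limma adjusted p = 0.107). The part of these markers in the levels of the 9 genes was not tested.

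Each Id gene had a pattern of its own over the 4 groups, and Id2 did not follow the others. Id1 was lower in 2i than in Std medium on both coatings. Id2 was higher on LN511 than on gelatin in both media and moved little with the medium. Id3 and Id4 were higher in 2i than in Std on both coatings. Below, ± is the SD of the 2 libraries of a group, and differences are on the log2(FPKM + 1) scale, which understates the change of low genes, with the standard error (SE) of a limma fit to all tested genes.

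Id1 is the Id gene best known as a BMP target. It had 4.35 and 6.10 FPKM on LN511 in 2i, against 54.4 and 42.8 FPKM on LN511 in Std. On gelatin it had 12.4 and 12.6 FPKM in 2i, against 33.9 and 29.6 FPKM in Std. No libraries of different groups overlapped, and the order of the means was LN511 Std (48.6 ± 8.19), gelatin Std (31.7 ± 3.05), gelatin 2i (12.5 ± 0.153) and LN511 2i (5.23 ± 1.23). The difference of 2i from Std was -3.00 (SE 0.20) on LN511 and -1.27 (SE 0.20) on gelatin. In linear terms Id1 was 9.30 times as high in Std as in 2i on LN511 and 2.54 times as high on gelatin. The coating went with Id1 in opposite directions: LN511 minus gelatin was -1.13 (SE 0.20) in 2i and 0.59 (SE 0.20) in Std. In bulk RNA, fewer cells that express a gene and less of its RNA in each cell cannot be told apart.

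The summed levels of fibroblast and neuroectoderm markers were lower in 2i than in Std, as Id1 was. The summed level of 9 fibroblast markers was 1.78 to 2.16 FPKM on LN511 in 2i and 2.42 to 2.43 FPKM on gelatin in 2i, against 3.54 to 4.59 FPKM on LN511 in Std and 4.96 to 6.12 FPKM on gelatin in Std. In each group 8 of the 9 were under 1 FPKM, Postn and Lum were listed at 0 throughout, and Col3a1 was above 0 on LN511 in Std alone. The summed level of 8 neuroectoderm markers was 8.77 to 8.89 FPKM on LN511 in 2i and 6.49 to 7.07 FPKM on gelatin in 2i, against 13.8 to 23.7 FPKM on LN511 in Std and 11.4 to 12.7 FPKM on gelatin in Std, with 6 of 8 under 1 FPKM in each group and Neurog2 listed at 0 throughout. Single markers within these sums went both ways. On gelatin, Thy1 had a mean of 0.3565 FPKM in 2i and 3.996 FPKM in Std, and Nes 2.595 and 9.51 FPKM. Pdgfrb had 1.553 FPKM in 2i and was listed at 0 in Std, and Sox1 had 3.237 and 1.661 FPKM. On LN511, Thy1 (0.3865 against 2.113 FPKM) and Nes (4.685 against 15.54 FPKM) were also lower in 2i. Pdgfrb (1.094 against 0.348 FPKM) and Sox1 (3.049 against 2.509 FPKM) were higher. The part of these markers in the Id1 levels was not tested.

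Id2, known as an early marker of the trophectoderm in the mouse embryo, went with the coating. In 2i it had 33.6 and 34.4 FPKM on LN511, against 7.52 and 4.84 FPKM on gelatin. In Std it had 46.0 and 40.3 FPKM on LN511, against 5.06 and 8.74 FPKM on gelatin. All 4 LN511 libraries were above all 4 gelatin libraries. LN511 minus gelatin was 2.31 (SE 0.28) in 2i and 2.52 (SE 0.28) in Std, or 5.50 and 6.25 times the gelatin mean. The medium went with smaller differences. On LN511, 2i minus Std was -0.33 (SE 0.28), with no overlap of the libraries, and on gelatin it was -0.12 (SE 0.28), with overlap. The order of the means was LN511 Std (43.1 ± 4.06), LN511 2i (34.0 ± 0.574), gelatin Std (6.90 ± 2.61) and gelatin 2i (6.18 ± 1.89), and the gelatin groups did not differ beyond their spread.

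The summed level of the primitive endoderm markers also went with the coating. The summed level of 10 of them was 19.1 to 20.3 FPKM on LN511 and 7.03 to 9.67 FPKM on gelatin in 2i, and 21.9 to 24.5 FPKM on LN511 and 9.48 to 9.78 FPKM on gelatin in Std. Most of it was Col4a1 and Lama1, which encode basement membrane chains and were higher on LN511 in both media. Gata4, Gata6, Sox7 and Dab2 were higher on LN511 in Std, while their libraries overlapped between the coatings in 2i. Sox17 was lower on LN511 in Std and overlapped in 2i, and Pdgfra and Foxa2 overlapped in both media. Between 6 and 8 of the 10 were under 1 FPKM in a group, Afp was listed at 0 throughout, Foxa2 was listed at 0 in both Std groups, and Gata6 on gelatin in Std. The part of these markers in the Id2 levels was not tested.

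Id3, which can stand in for Id1 in the mouse embryo, was highest on gelatin in 2i. There it had 35.9 and 42.2 FPKM, against 14.6 and 11.8 FPKM on gelatin in Std. On LN511 it had 25.2 and 19.6 FPKM in 2i, against 18.1 and 16.9 FPKM in Std. No groups overlapped, in the order gelatin 2i (39.1 ± 4.46), LN511 2i (22.4 ± 3.96), LN511 Std (17.5 ± 0.900) and gelatin Std (13.2 ± 2.00). The difference of 2i from Std was 0.33 (SE 0.18) on LN511 and 1.5 (SE 0.18) on gelatin. As with Id1, LN511 minus gelatin was negative in 2i (-0.78, SE 0.18) and positive in Std (0.39, SE 0.18).

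Id4, an Id gene of neural progenitors and of the male germ line, had the lowest group mean of the 4 in every group, though in LN511 2i replicate 1 it was above Id1. It had 4.71 and 2.38 FPKM on LN511 and 4.34 and 2.04 FPKM on gelatin in 2i. In Std it had 0.242 and 0.238 FPKM on LN511 and 0.852 and 1.33 FPKM on gelatin. All 2i libraries were above all Std libraries, while the 2i groups overlapped each other. The difference of 2i from Std was 1.82 (SE 0.40) on LN511 and 0.96 (SE 0.40) on gelatin, and with a pseudocount of 0.1 it was 3.34 and 1.40. The LN511 Std level is that of a few fragments at the estimated depth.

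**Figure D1:**
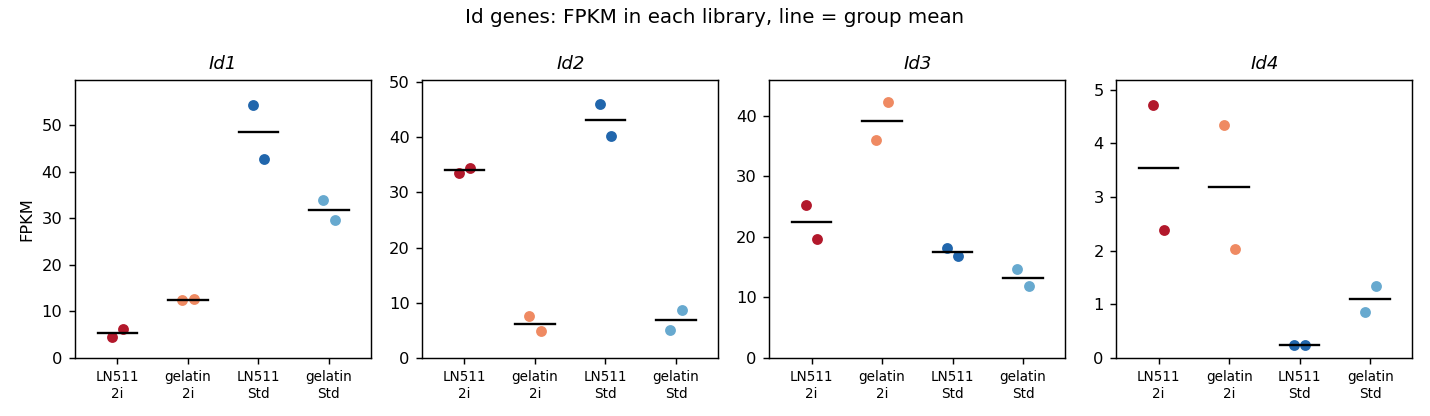
FPKM (vertical axis, linear) of Id1, Id2, Id3 and Id4 in each library (points) and the group mean (line) for LN511 2i, gelatin 2i, LN511 Std and gelatin Std. Id1 is high in the Std groups, Id2 in the LN511 groups (all 4 libraries at 33.6 FPKM or more), and Id3 and Id4 in the 2i groups.

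With Id3 and Id4, the summed level of the mesendoderm markers was also higher in 2i. Their summed level, over 8 genes, was 5.38 to 6.34 FPKM on LN511 in 2i and 9.60 to 11.7 FPKM on gelatin in 2i, against 0.710 to 1.95 FPKM on LN511 in Std and 0.827 to 1.02 FPKM on gelatin in Std. Under 1 FPKM were 5 of the 8 in each 2i group and all 8 in each Std group. Mesp1 and Cer1 were listed at 0 throughout, and T was listed at 0 in both Std groups. Most of the sum in 2i was Eomes, Gsc and T, which were higher in 2i on both coatings. Mixl1 overlapped between the media on both coatings, and Foxa2 was higher in 2i on LN511 and overlapped on gelatin. Evx1 was lower in 2i on gelatin (0.0691 against 0.1489 FPKM) and higher on LN511 (0.2587 FPKM, against 0 in Std). The summed level of 9 trophoblast markers was 26.3 to 28.8 FPKM on LN511 and 40.4 to 41.9 FPKM on gelatin in 2i, and 28.9 to 38.7 FPKM on LN511 and 20.6 to 26.7 FPKM on gelatin in Std. Between 2 and 5 of these 9 were under 1 FPKM in a group, and Hand1 was listed at 0 in both 2i groups. Eomes counts in both sums, and single trophoblast markers went both ways. On gelatin Eomes, Tfap2c, Gata3, Cdx2 and Plet1 were higher in 2i and Ascl2 was lower. On LN511 Eomes, Tfap2c, Cdx2 and Plet1 were higher in 2i, and Hand1 and Krt7 were lower. The others overlapped between the media. The part of these markers was not tested.

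The 4 Id genes together summed to 67.8 and 62.4 FPKM on LN511 in 2i, 60.1 and 61.7 FPKM on gelatin in 2i, 119 and 100.2 FPKM on LN511 in Std, and 54.4 and 51.4 FPKM on gelatin in Std. The sum was thus at 51.4 to 67.8 FPKM in the libraries of all groups but LN511 Std, which stood above them. What made up the sum differed between the groups. Id2 was 52.3% ± 3.9 of it on LN511 in 2i and 10.2% ± 3.3 on gelatin in 2i, and 39.5% ± 1.0 on LN511 in Std and 13.2% ± 5.4 on gelatin in Std. Id1 was 8.1% ± 2.4 on LN511 and 20.5% ± 0.1 on gelatin in 2i, against 44.3% ± 2.2 on LN511 and 59.9% ± 3.4 on gelatin in Std. Id3 was the main Id transcript on gelatin in 2i, with 64.1% ± 6.2. The leading gene was thus Id2 on LN511 in 2i, Id3 on gelatin in 2i, and Id1 on both coatings in Std, there with Id2 close to it on LN511.

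**Figure D2:**
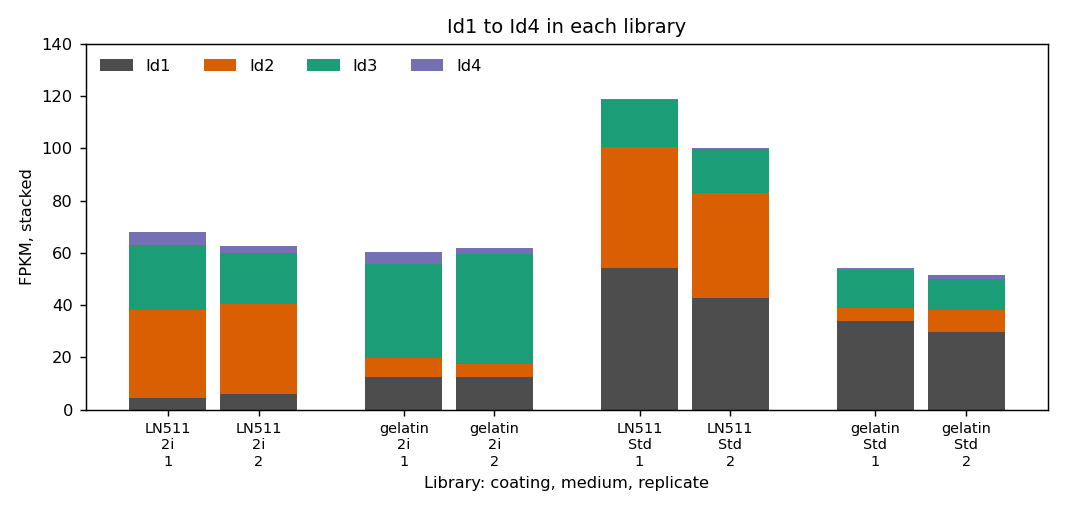
Stacked FPKM of Id1, Id2, Id3 and Id4 (colours) in each of the 8 libraries, labelled by coating, medium and replicate. The Id2 part is large in the 4 LN511 libraries and small in the 4 gelatin libraries, and the Id1 part is large in the Std libraries.

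Set against the mean of Id1, Id3 and Id4 on the log2 scale, the Id2 level stood 1.90 and 2.16 above it on LN511 in 2i and 2.1 and 2.06 above it on LN511 in Std. On gelatin it was -0.70 and -1.05 from that mean in 2i and -0.73 and 0.01 in Std. Between the coatings the gap changed by 2.90 in 2i and 2.44 in Std, and between the media by -0.05 on LN511 and -0.52 on gelatin. A mean of the other 3 genes hides that Id1 went one way with the medium and Id3 and Id4 the other, so the values of each gene carry more than the gap. Over the 8 libraries, Pearson's r of log2(FPKM + 1) was -0.01 between Id2 and Id1, -0.25 between Id2 and Id3, -0.24 between Id2 and Id4, -0.53 between Id1 and Id3 and -0.90 between Id1 and Id4. Between Id3 and Id4 r was 0.59, the only positive value among the Id genes. These are descriptions over libraries that fall into 4 groups, and no p-value is given.

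The genes nearest to Id1 and Id2 in pattern are given as a description, since the best of many genes will have a high r. Ranked by r with Id1 among the 10273 other tested genes, Id2 stood at place 5413, Id3 at 7947 and Id4 at 9978. Ranked by r with Id2, Id1 stood at place 5663, Id3 at 7768 and Id4 at 7685. Among the 6178 tested genes whose mean reached 5 FPKM, the 5 most like Id1 over the 8 libraries were Socs2, a feedback inhibitor of cytokine signalling, Aldh7a1, an aldehyde dehydrogenase, Mrrf, a mitochondrial ribosome recycling factor, Nup37, a nuclear pore component, and Nufip2, an RNA-binding protein (r = 0.986 to 0.989). Socs2 had a mean of 6.17 FPKM on LN511 and 11.9 FPKM on gelatin in 2i, and of 46.5 FPKM on LN511 and 31.8 FPKM on gelatin in Std, close to Id1 in level too. The 5 most like Id2 were Eif1, a translation initiation factor, Bex1, an X-linked adaptor protein gene, Cul7, a cullin, Dapk3, a kinase that acts on myosin, and Pdhb, a subunit of pyruvate dehydrogenase (r = 0.949 to 0.967). Bex1 had a mean of 595 FPKM on LN511 and 355 FPKM on gelatin in 2i, and of 637 FPKM on LN511 and 304 FPKM on gelatin in Std. These 5 differed less between coatings than Id2 did, since r measures the shape of the pattern and not its size.

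Bmp4 (chromosome 14, 46383525 to 46390669), the ligand gene, was low in 3 groups and higher in the other one. It had 0.875 and 1.22 FPKM on LN511 and 0.932 and 0.584 FPKM on gelatin in 2i. In Std it had 3.98 and 5.33 FPKM on LN511 and 1.96 and 0.863 FPKM on gelatin. Both LN511 Std libraries were above all others, and the other 3 groups overlapped. The difference of 2i from Std was -1.46 (SE 0.33) on LN511 and -0.43 (SE 0.33) on gelatin, and LN511 minus gelatin in Std was 1.26 (SE 0.33). At the estimated depth 1 fragment on the Bmp4 transcript is 0.193 FPKM, so the 3 low groups rest on few fragments.

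Bmpr1a (chromosome 14, 34411061 to 34503336), a type I BMP receptor, was measured at moderate levels in all groups. It had 10.9 and 8.37 FPKM on LN511 and 15.2 and 15.5 FPKM on gelatin in 2i, and 18.8 and 15.1 FPKM on LN511 and 8.42 and 15.3 FPKM on gelatin in Std. Every neighbouring pair of groups in the order of the means overlapped. LN511 2i was nevertheless below gelatin 2i (difference -0.63, SE 0.28) and below LN511 Std (difference -0.76, SE 0.28), without overlap in either case. The spread between the gelatin Std libraries, 11.8 ± 4.84 FPKM, was the widest.

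The transducers Smad1 and Smad5 varied least of the 9 genes, with the highest group mean 1.36 times the lowest for each. Smad1 (chromosome 8, 79338395 to 79399428) had 5.69 and 5.80 FPKM on LN511 and 6.54 and 5.98 FPKM on gelatin in 2i, and 4.19 and 5.04 FPKM on LN511 and 4.84 and 5.48 FPKM on gelatin in Std. All 2i libraries were above all Std libraries, by small margins: 0.27 (SE 0.21) on LN511 and 0.24 (SE 0.21) on gelatin. Smad5 (chromosome 13, 56703010 to 56742378) had 5.60 and 4.74 FPKM on LN511 and 6.23 and 5.82 FPKM on gelatin in 2i, and 3.54 and 5.33 FPKM on LN511 and 5.26 and 5.51 FPKM on gelatin in Std. Its differences ran from -0.25 to 0.20 over the 4 comparisons. Smad5 was the one gene of the 9 with more than 1 RefSeq row: in 1 gelatin Std library the whole value, 5.51 FPKM, stood on another transcript than in most libraries, whose own row was listed at 0 there.

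Smad6 (chromosome 9, 63953076 to 64022085), an inhibitory Smad that BMP signalling is known to induce, went with the medium in the way of Id3 and Id4 and opposite to Id1. It had 4.86 and 5.10 FPKM on LN511 and 4.94 and 3.82 FPKM on gelatin in 2i, against 1.14 and 1.54 FPKM on LN511 and 2.15 and 1.46 FPKM on gelatin in Std. All 2i libraries were above all Std libraries. The difference was 1.36 (SE 0.27) on LN511 and 0.94 (SE 0.27) on gelatin, and the coatings overlapped in each medium. Among the Id genes and Smad6, therefore, Id1 was lower in 2i on both coatings, while Id3, Id4 and Smad6 were higher. Id2 was lower in 2i on LN511 and overlapped between the media on gelatin.

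**Figure D3:**
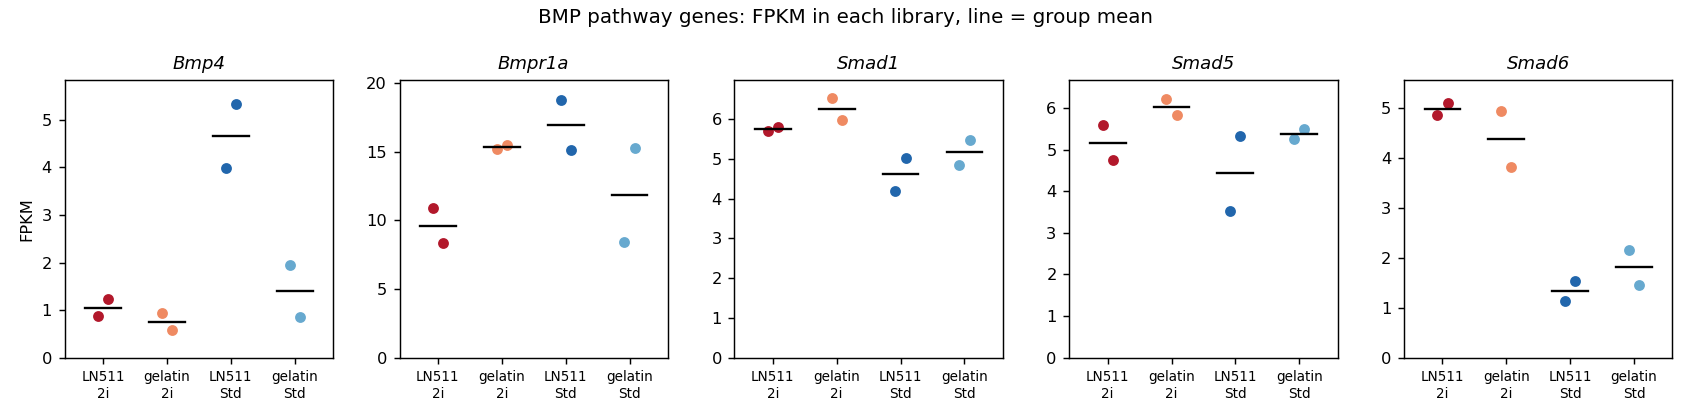
FPKM (vertical axis, linear from 0) of Bmp4, Bmpr1a, Smad1, Smad5 and Smad6 in each library (points) and the group mean (line). Bmp4 is highest in the LN511 Std libraries (3.98 and 5.33 FPKM), and Smad6 is at 3.82 FPKM or more in the 4 libraries of 2i and at 2.15 FPKM or less in Std.

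Counted over the 9 genes, 5 were higher and 1 lower in 2i than in Std on gelatin with no overlap between the libraries, where 59.2% of all tested genes did not overlap (29.9% higher and 29.3% lower). On LN511, 4 were higher and 4 lower in 2i, where 59.6% of all tested genes did not overlap (27.7% higher and 32.0% lower). LN511 was above gelatin for 4 and below it for 1 in Std, against 49.5% of all tested genes (28.7% higher and 20.7% lower). In 2i LN511 was above gelatin for 1 and below it for 5, against 42.9% of all tested genes (22.2% higher and 20.7% lower). As the genes were chosen with these values known, nothing is read from the counts. For Id1 and Id3 the coating went opposite ways in the 2 media without overlap, LN511 being lower in 2i and higher in Std, which held for 4.93% of all tested genes.

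**Figure D4:**
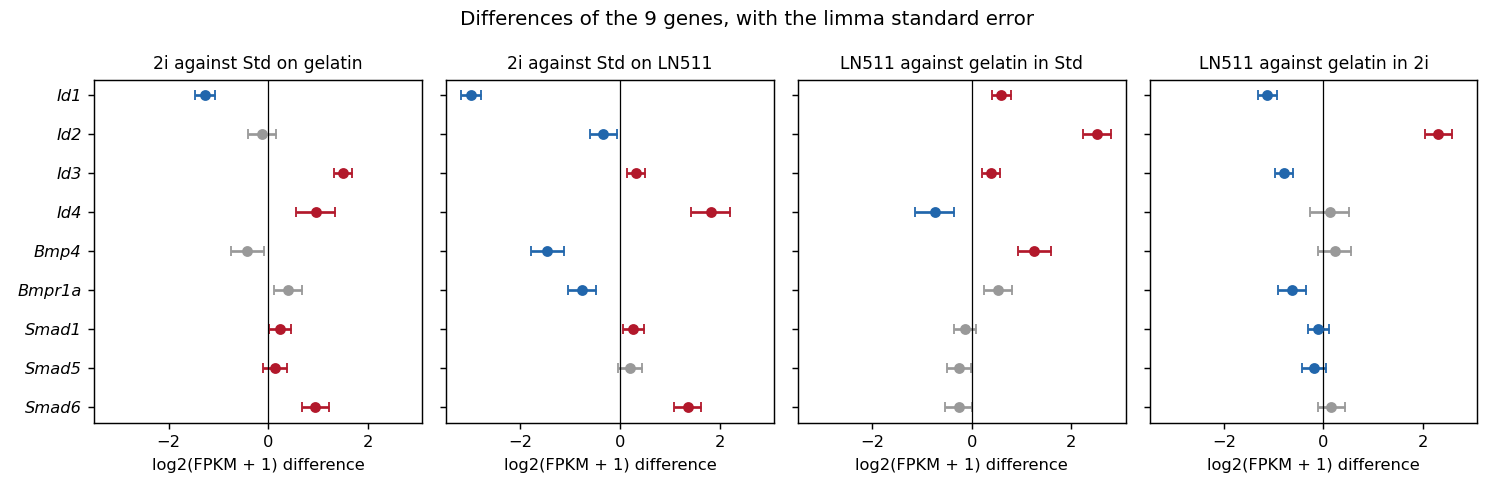
Differences of the 9 genes on the log2(FPKM + 1) scale (points, horizontal axis) with the limma SE (bars) in the 4 comparisons, 2i minus Std or LN511 minus gelatin. Red points have both libraries of the first-named condition above those of the other, blue points have both below, and grey points overlap; Id2 stands at 2.31 in 2i and 2.52 in Std in the coating comparisons.

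The other genes of the pathway were taken from 6 lists by role (ligands, receptors, transducers, intracellular inhibitors, extracellular antagonists and modulators, and targets) that hold 61 genes and none of the 9. Of these, 57 had a value and 31 were tested. The lists were chosen with earlier results of these data known, so the shares called below are not an independent test of the pathway. On gelatin, 3 of the 31 rose and 4 fell in 2i at a limma adjusted p under 0.05 over all genes. That is 22.6% of the 31, where 15.4% of all tested genes were called (8.21% higher and 7.2% lower), and the median difference was 0.04 against 0.00 over all genes. On LN511 none was called higher and 5 were called lower, with a median of -0.10 against -0.04. That is 16.1%, where 18.5% of all tested genes were called (8.58% higher and 9.96% lower). By role, the calls on gelatin were 1 of 3 ligand genes, 2 of 8 intracellular inhibitors, 1 of 6 extracellular genes and 3 of 8 targets, and on LN511 they were 1 of 3, 1 of 8, 1 of 6 and 2 of 8. Dusp9, Skil and Zfp423 fell on both coatings, 42.9% of the list's calls on gelatin and 60.0% of those on LN511. Over all tested genes, 967 were called on both coatings in the same direction, 61.1% of the calls on gelatin and 50.8% of those on LN511.

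Dusp9 (chromosome X, 73639389 to 73643514) encodes a phosphatase of ERK kinases and is known as a BMP target in mouse embryonic stem cells. It had 26.3 and 21.4 FPKM on LN511 in 2i, against 74.99 and 76.23 FPKM in Std (log2 -1.63, SE 0.15, limma adjusted p = 0.000955). On gelatin it had 20.1 and 16.0 FPKM in 2i, against 44.2 and 43.4 FPKM in Std (log2 -1.24, SE 0.15, limma adjusted p = 0.00343). It thus went with the medium in the direction of Id1. Between coatings it was 75.6 ± 0.873 FPKM on LN511 and 43.8 ± 0.575 FPKM on gelatin in Std, which missed the threshold (limma adjusted p = 0.0572).

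Skil (chromosome 3, 31095058 to 31122923) encodes SnoN, a corepressor of Smad complexes that is better known from TGF-beta and Nodal signalling. It fell to 4.38 ± 1.02 FPKM in 2i on LN511, against 24.7 ± 2.59 FPKM in Std (log2 -2.26, SE 0.21, limma adjusted p = 0.000964), and to 5.81 ± 0.824 FPKM in 2i on gelatin, against 34.3 ± 3.74 FPKM in Std (log2 -2.38, SE 0.21, limma adjusted p = 0.00105). Zfp423 (chromosome 8, 87661810 to 87962053), a zinc finger partner of Smads, was at 0.895 ± 0.254 FPKM in 2i on LN511 and 1.45 ± 0.333 FPKM in 2i on gelatin, against 6.12 ± 0.521 FPKM on LN511 and 6.74 ± 0.761 FPKM on gelatin in Std (limma adjusted p = 0.00446 on LN511 and 0.00865 on gelatin). Its call on gelatin missed the threshold without gelatin 2i replicate 2 (limma adjusted p = 0.0504).

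On gelatin 3 genes were called higher in 2i. Fstl1 (chromosome 16, 37777055 to 37836516), which encodes a secreted protein that can bind BMP4, had 44.3 and 38.2 FPKM in 2i, against 11.6 and 15.2 FPKM in Std (log2 1.55, SE 0.16, limma adjusted p = 0.00204). Tob1, known in mouse bone cells to dampen BMP signals through Smads, had 16.0 and 16.1 FPKM in 2i, against 1.69 and 6.02 FPKM in Std (limma adjusted p = 0.0258). Gata2, a transcription factor gene that BMP induces in mesoderm, had 2.43 and 1.49 FPKM in 2i, against 0.135 and 0.0633 FPKM in Std (limma adjusted p = 0.0208). On LN511 these 3 genes were also higher in 2i without overlap, but none was called. The means in 2i and Std there were 31.0 and 24.8 FPKM for Fstl1 (limma adjusted p = 0.243). They were 11.3 and 4.85 FPKM for Tob1 (limma adjusted p = 0.132), and 1.89 and 1.20 FPKM for Gata2 (limma adjusted p = 0.394). Leaving out 1 of the libraries ended the call of Tob1 (limma adjusted p = 0.109 without either gelatin 2i library) and of Gata2 (limma adjusted p = 0.094 without gelatin 2i replicate 1, 0.0712 without gelatin Std replicate 1 and 0.0834 without gelatin Std replicate 2). The ligand Bmp6 fell on gelatin, at 0.168 and 0 FPKM in 2i against 1.12 and 1.31 FPKM in Std (limma adjusted p = 0.0442), a call that was lost with any 1 of the 8 libraries left out (0.0539 to 0.163).

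**Figure D5:**
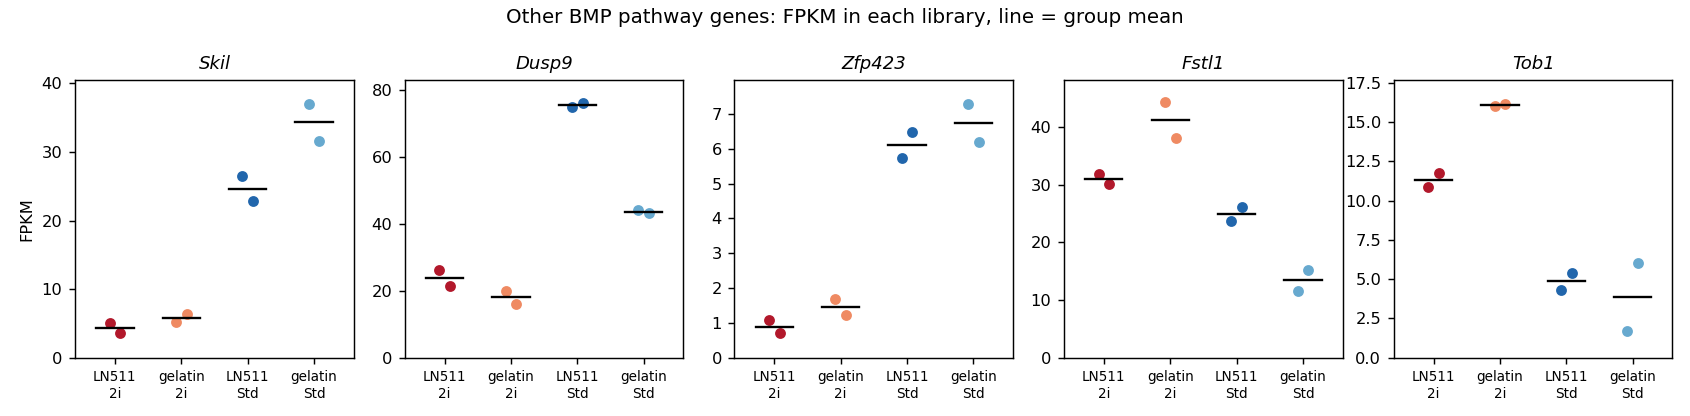
FPKM (vertical axis, linear from 0) of Skil, Dusp9, Zfp423, Fstl1 and Tob1 in each library (points) and the group mean (line). Skil, Dusp9 and Zfp423 are lower in all 4 libraries of 2i than in all 4 of Std, and Dusp9 in Std is higher on LN511 (75.6 FPKM) than on gelatin (43.8 FPKM).

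The coating comparison in Std called 2 of the 31, both higher on LN511 (6.45%, where 2.1% of all tested genes were called, 1.54% higher and 0.565% lower), with a median of 0.31 against 0.05 over all genes. Bmp8b, a ligand gene with a close copy, Bmp8a, between which the estimate may split reads, had 2.66 and 3.71 FPKM on LN511, against 0 and 0.492 FPKM on gelatin (log2 1.77, SE 0.32, limma adjusted p = 0.0492). Bmp1, which despite its name encodes a protease that cleaves collagens and the BMP antagonist chordin, had 2.90 and 2.25 FPKM on LN511, against 0.346 and 0.162 FPKM on gelatin (log2 1.51, SE 0.26, limma adjusted p = 0.042). Both also fell in 2i on LN511, to 0.574 ± 0.196 FPKM against 3.19 ± 0.743 FPKM in Std for Bmp8b (limma adjusted p = 0.0275) and to 0.580 ± 0.110 FPKM against 2.58 ± 0.456 FPKM in Std for Bmp1 (limma adjusted p = 0.0249). These 2 comparisons share the LN511 Std libraries. The coating calls were lost with any 1 of the 8 libraries left out (limma adjusted p = 0.0772 to 0.192 for Bmp8b and 0.0658 to 0.163 for Bmp1), and the calls on LN511 were lost with any 1 of its 4 libraries left out (0.0654 to 0.115 and 0.0616 to 0.1).

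In 2i, limma called none of the 31 between the coatings, where 0.0195% of all tested genes were called. At an unadjusted p under 0.05 there were 3 of the 31 (9.68%), against 1228 of all 10274 tested genes (12%). None had a different response to the medium on the 2 coatings by limma's interaction term, where 0.185% of all tested genes were called. At an unadjusted p under 0.05 there were 7 of the 31 (22.6%), against 12.2% of all tested genes. By role, none of the 5 receptor and co-receptor genes tested passed the test in any of the 5 contrasts. The co-receptor gene Rgma came nearest, with a mean of 2.69 FPKM in 2i and 0.204 FPKM in Std on LN511 (limma adjusted p = 0.0526). Smad4, the 1 transducer tested, did not pass in any contrast either. Smad4, the common partner of Smad1 and Smad5, was at 14.2 ± 0.591 FPKM on LN511 and 17.4 ± 4.85 FPKM on gelatin in 2i, and at 21.1 ± 0.710 FPKM on LN511 and 12.4 ± 1.88 FPKM on gelatin in Std. The type II receptor gene Bmpr2 was at 2.03 to 2.49 FPKM in 7 libraries and listed at 0 in gelatin Std replicate 2, and the type I receptor gene Acvr1 had group means of 1.91 to 4.31 FPKM. The inhibitory Smad7, unlike Smad6, was at 14.3 ± 1.06 FPKM on LN511 and 13.1 ± 0.940 FPKM on gelatin in 2i, against 12.4 ± 1.70 FPKM on LN511 and 11.9 ± 0.255 FPKM on gelatin in Std. The pseudoreceptor gene Bambi and the ligand gene Bmp7 had group means of 2.02 to 2.46 FPKM and 0.784 to 1.39 FPKM. Smad9 stayed under 0.16 FPKM in every library.

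Among the E protein genes, whose products Id proteins bind, Tcf3 was well above the others, at 38.0 ± 0.486 FPKM on LN511 and 49.1 ± 0.466 FPKM on gelatin in 2i, and 44.2 ± 4.08 FPKM on LN511 and 50.6 ± 2.00 FPKM on gelatin in Std. Tcf12 ranged from 2.97 to 13.1 FPKM over the libraries and Tcf4 from 0 to 2.69 FPKM. None of the 3 passed the test in any comparison (limma adjusted p = 0.215 or more).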

How the data were processed

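The authors deposited FPKM values of each library, in a gene table and a transcript table. The processing notes of the submitters name Cufflinks 2.1.1, TopHat2 2.1.1 and mm10. How the libraries were scaled, their strandedness and the annotation: not given in the sources used here. No sample column was left out (0). RefSeq transcript rows were summed per gene through the RefSeq gene table of GRCm38.p6 (31782 of 32688 rows matched a symbol), and 21844 rows of assembled transcripts were not used. The gene table served as an alternative only, since it lists at 0 24 of the 72 values of the 9 genes that the sums put above 0; the other 48 agreed within 0.1%.

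Genes with at least 1 FPKM in 2 libraries were kept (11240), less 966 with a doubtful zero (a replicate at 0 beside one at 5 FPKM or more, or a group at 0 beside a group mean of 5 FPKM or more), leaving 10274. Tests used limma (version 3.58.1, R version 4.3.3, eBayes with trend) on log2(FPKM + 1), 4 group means, 8 libraries, Benjamini-Hochberg adjusted p under 0.05 in each of 5 contrasts, checked on simulated data. The 9 genes and the lists were chosen with earlier results of these data known. Named were the 9 genes, called list genes (up to 3 a list and contrast), a fixed panel and the 5 genes nearest in pattern to Id1 and Id2. Rgma was named as a near miss. Same-numbered libraries of different groups showed no shared deviation: the correlations of their deviations from the group means were -0.02 to 0.02. This does not show whether the libraries were prepared in pairs. Counting error is not given, as the files hold no read counts.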

Additional observations from a re-analysis of the deposited data

Results flagged for a closer look

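For Id1 the coating went opposite ways in the 2 media: both LN511 libraries were below both gelatin libraries in 2i, and both were above them in Std. The difference between the 2 coating effects was -1.72 on the log2(FPKM + 1) scale and was not tested, because the gene was chosen with its levels known. Id3 showed the same opposite directions, with a difference between the coating effects of -1.17, also not tested. Over all tested genes, 4.93% had this pattern.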

How the results depend on the processing

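The values of low genes depend on the pseudocount, and with 2 libraries a group 1 library can decide a call. The deposited gene table leaves 2784 genes to test in place of 10274, and 17 of the pathway genes in place of 31, so its counts are not on the same base. The pathway genes called in 2i against Std on gelatin (7) were 1 in the deposited gene table, 4 with only the 4 libraries of the contrast, and 4 to 7 with 1 library left out, the low value being without either gelatin 2i library. Those on LN511 (5) were 3 with a pseudocount of 0.1, 3 in the gene table, and 3 to 6 with 1 library left out (3 without LN511 Std replicate 2). Those of the coating in Std (2) were 0 with a pseudocount of 0.1, 1 with doubtful zeros kept, 1 in the gene table, 0 with only the 4 libraries, 0 with the replicate block, and 0 to 1 with 1 library left out. For the coating in 2i (0) there was 1 with doubtful zeros kept and 1 in the gene table, and for the interaction (0) there were 2 in the gene table; both were 0 with any 1 library left out. The replicate block, by numbers whose libraries showed no shared deviation, gave 6 calls on gelatin and 5 on LN511. Over all genes, 1583 calls on gelatin (15.4%) became 295 in the gene table (10.6% of those tested there), 998 with 4 libraries and 648 to 1516 with 1 library left out. The 1905 on LN511 (18.5%) became 326 (11.7%), 964 and 862 to 1625. The 216 of the coating in Std (2.1%) became 135 (4.85%, a larger share), 6 and 9 to 199, and 80 with the replicate block. The 2 of the coating in 2i became 54 in the gene table (1.94%), 42 with doubtful zeros kept, 15 with no filter, 0 with a pseudocount of 0.1, with only the 4 libraries or with the replicate block, and 0 to 12 with 1 library left out. The 19 of the interaction became 65 in the gene table (2.33%), 53 with doubtful zeros kept, 31 with no filter, 1 with the replicate block and 0 to 11 with 1 library left out.

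The gap of Id2 to the other Id genes between coatings was 2.90 in 2i (5.15 in the gene table, 2.73 to 3.08 with 1 library left out) and 2.44 in Std (2.93 with a pseudocount of 0.1, 1.78 in the gene table, 2.07 to 2.81). Between media it was -0.52 on gelatin (-1.82 in the gene table, -0.88 to -0.15) and -0.05 on LN511 (-0.50 with a pseudocount of 0.1, 1.55 in the gene table, -0.184 to 0.083, the last without LN511 2i replicate 1). Among the differences of the 9 genes, 6 of genes whose libraries do not overlap reversed, all in the gene table, where zeros stand for measured values: on gelatin Smad5 (-1.29) and Smad6 (-0.19) between media, on LN511 Id3 (-1.85) and Bmp4 (1.03) between media, Bmp4 (-1.23) between coatings in Std, and Smad1 (1.35) between coatings in 2i. No other setting reversed one of these. Over the 9 genes and all comparisons and settings, 52 differences moved by more than the SD within groups, and 194 stayed within it. Leaving out 1 library moved Id1 between media on LN511 (-3.20 to -2.79) and Id2 between coatings in Std (2.18 to 2.86), among others. Other causes were not tested.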

Other observations

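Much of the wider BMP pathway had levels under the filter for testing. Of the 61 genes, 24 did not reach 1 FPKM in 2 libraries, and 21 of these did not reach 1 FPKM in any library. They include 7 of the ligand genes, such as Bmp2, and 10 of the extracellular antagonists and modulators, such as Nog and Grem1. Chrd, the gene of the antagonist chordin, was at 1.02 and 0.656 FPKM on LN511 and 0.670 and 0.865 FPKM on gelatin in 2i, and at 0.829 and 0.560 FPKM on LN511 and listed at 0 in both libraries on gelatin in Std.

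The receptor genes Acvr2b and Eng were set aside because a whole group was listed at 0. Acvr2b, a type II receptor, was listed at 0 in both LN511 libraries and had 1.52 and 1.61 FPKM on gelatin in 2i, and had 7.16 and 5.04 FPKM on LN511 and 3.37 and 2.18 FPKM on gelatin in Std. Eng, a co-receptor, had 6.999 and 8.483 FPKM on LN511 and was listed at 0 in both gelatin libraries in 2i, and had 5.78 and 9.35 FPKM on LN511 and 4.63 and 5.26 FPKM on gelatin in Std. No fold change is given against a group listed at 0.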
